A study of Homo sapiens with 36 samples.

Results

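The metallothioneins MT1E, MT1F, MT1G, MT1H, MT1M, MT1X and MT2A and their transcription factor MTF1 are described here across every group of the series. Members were taken by name: each probe set whose platform symbol is 1 of these 8 genes was used, whatever its values. That gave 14 probe sets of 8 genes, out of 41097 probe sets that the platform annotation ties to 1 gene and 19775 genes in all. Of the 14, 11 measure metallothioneins and 3 measure MTF1. Expression had been measured on 36 Affymetrix arrays of 1 colour. The cells were HK-2, a human proximal tubule epithelial line that has been immortalized, so they stand for 1 culture model and not for the kidney. The arrays form 2 sets of 18 arrays with separate vehicle controls. In the first set the groups were CdCl for 12 h, CdCl for 48 h, Di for 12 h, Di for 48 h and a vehicle control at each time. In the second they were Kbr at a low and at a high dose for 24 h and for 48 h, again with a vehicle control at each time. The labels do not spell out CdCl, Di or Kbr and give no dose beyond low and high. Each of the 12 groups held 3 arrays, which the labels call biological replicates of the same line, so that the p-values measure the spread between these cultures only, with a precision limited by so few arrays.

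Metallothioneins are small, cysteine-rich proteins that bind zinc, copper and cadmium through their thiol groups. They buffer zinc, hold toxic metals and can take up oxidants, and in the proximal tubule they are known as the main store of cadmium. MTF1 is the zinc-finger factor that senses free zinc, binds metal response elements in metallothionein promoters and turns on these genes and the zinc exporter SLC30A1. The human genes lie side by side on the long arm of chromosome 16. From MT2A to MT1X the current gene annotation lists 15 genes. The members stand there in the order MT2A, MT1E, MT1M, MT1F, MT1G, MT1H and MT1X, with MT1A, MT1B, an RNA gene and several pseudogenes between them. Because the copies are close to identical, their probes cross-bind: 9 of the 11 metallothionein probe sets carry the suffix _x_at, with which the manufacturer marks probes shared by other transcripts. The accession behind the MT1X probe set 204326_x_at belongs to the pseudogene MT1L in the current table. A value below is therefore that of a probe set, and it can hold RNA of neighbouring copies.

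MTF1 is known to bind metal response elements, so the promoters were searched for their core letters. The 250 bases before the start of MT2A (GRCh38.p14, chr16:56608334-56608583, plus strand), MT1H (chr16:56669564-56669813, plus strand) and MT1X (chr16:56682220-56682469, plus strand), taken from RefSeq and read 5′ to 3′, are shown because they are the metallothionein members that the promoter table holds. Capitals mark every match on either strand to the metal response element core TGCACNC or to its relative TGCGCNC.
MT2A: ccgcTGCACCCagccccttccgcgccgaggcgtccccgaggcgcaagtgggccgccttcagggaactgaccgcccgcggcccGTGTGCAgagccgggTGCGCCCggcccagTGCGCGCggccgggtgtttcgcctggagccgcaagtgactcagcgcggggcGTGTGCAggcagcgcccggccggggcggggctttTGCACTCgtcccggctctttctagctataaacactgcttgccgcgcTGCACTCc
MT1H: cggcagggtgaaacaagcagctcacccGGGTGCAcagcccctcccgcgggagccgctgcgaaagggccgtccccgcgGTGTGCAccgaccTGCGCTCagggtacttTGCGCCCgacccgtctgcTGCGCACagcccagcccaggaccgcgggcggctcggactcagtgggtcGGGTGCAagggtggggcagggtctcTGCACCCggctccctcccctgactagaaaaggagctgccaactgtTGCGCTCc
MT1X: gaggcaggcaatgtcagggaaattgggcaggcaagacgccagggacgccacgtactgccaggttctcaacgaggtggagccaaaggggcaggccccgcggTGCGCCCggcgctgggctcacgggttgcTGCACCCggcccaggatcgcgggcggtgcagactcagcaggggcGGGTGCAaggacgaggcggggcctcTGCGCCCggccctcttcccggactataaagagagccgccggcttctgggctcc
MT2A held 7 matches, MT1H 8 and MT1X 4, with no overlap between matches. MT1H and MT1X both had a match at positions -78 to -72 and another at -53 to -47, counted back from the start, and MT2A had one at -54 to -48. Of 35116 promoter windows of the same length, 24.8% held at least 1 match, 0.37% at least 4, 0.0313% at least 7 and 0.0171% at least 8. MTF1 itself held 0 in its window, which says only that these letters are not there. The promoter table held 4 of the 8 members, so that MT1E, MT1F, MT1G and MT1M are named only. A match is a run of letters and not a measured site.

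Values are log2 expression as the authors deposited them, so a difference of 1 doubles the signal. A probe set was tested if it was above 4, taken as the background level, on at least 3 of the 36 arrays. That kept 13 of the 14 member probe sets, 10 of them for metallothioneins, among 23599 probe sets. A change was called at an adjusted p below 0.05 over all tested probe sets, from moderated linear models in limma. Errors after ± are standard errors of a difference. They and the intervals rest on 1 spread for each probe set, estimated over all 12 groups. They can thus be wider or narrower than the groups compared would give. For MT2A the standard deviation was 0.03 with Di at 12 h and 0.03 in its control, but 0.42 with high Kbr at 48 h. Within a group, arrays had correlations of 0.982 to 0.995. RNA quality was read from actin, as its 3′ signal minus its 5′ signal: group means were 1.40 to 1.84 with the CdCl and Di arrays and 0.866 to 1.06 with the Kbr arrays. Of 11 tubular epithelial markers, 5 (KRT8, KRT18, KRT19, CDH6 and PAX8) were above background on all 36 arrays. GGT1, ANPEP, PAX2, LRP2, AQP1 and CUBN, among them defining markers of the proximal tubule, were above it on none. In these bulk samples, fewer cells and less RNA per cell cannot be told apart.

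**Figure D1:**
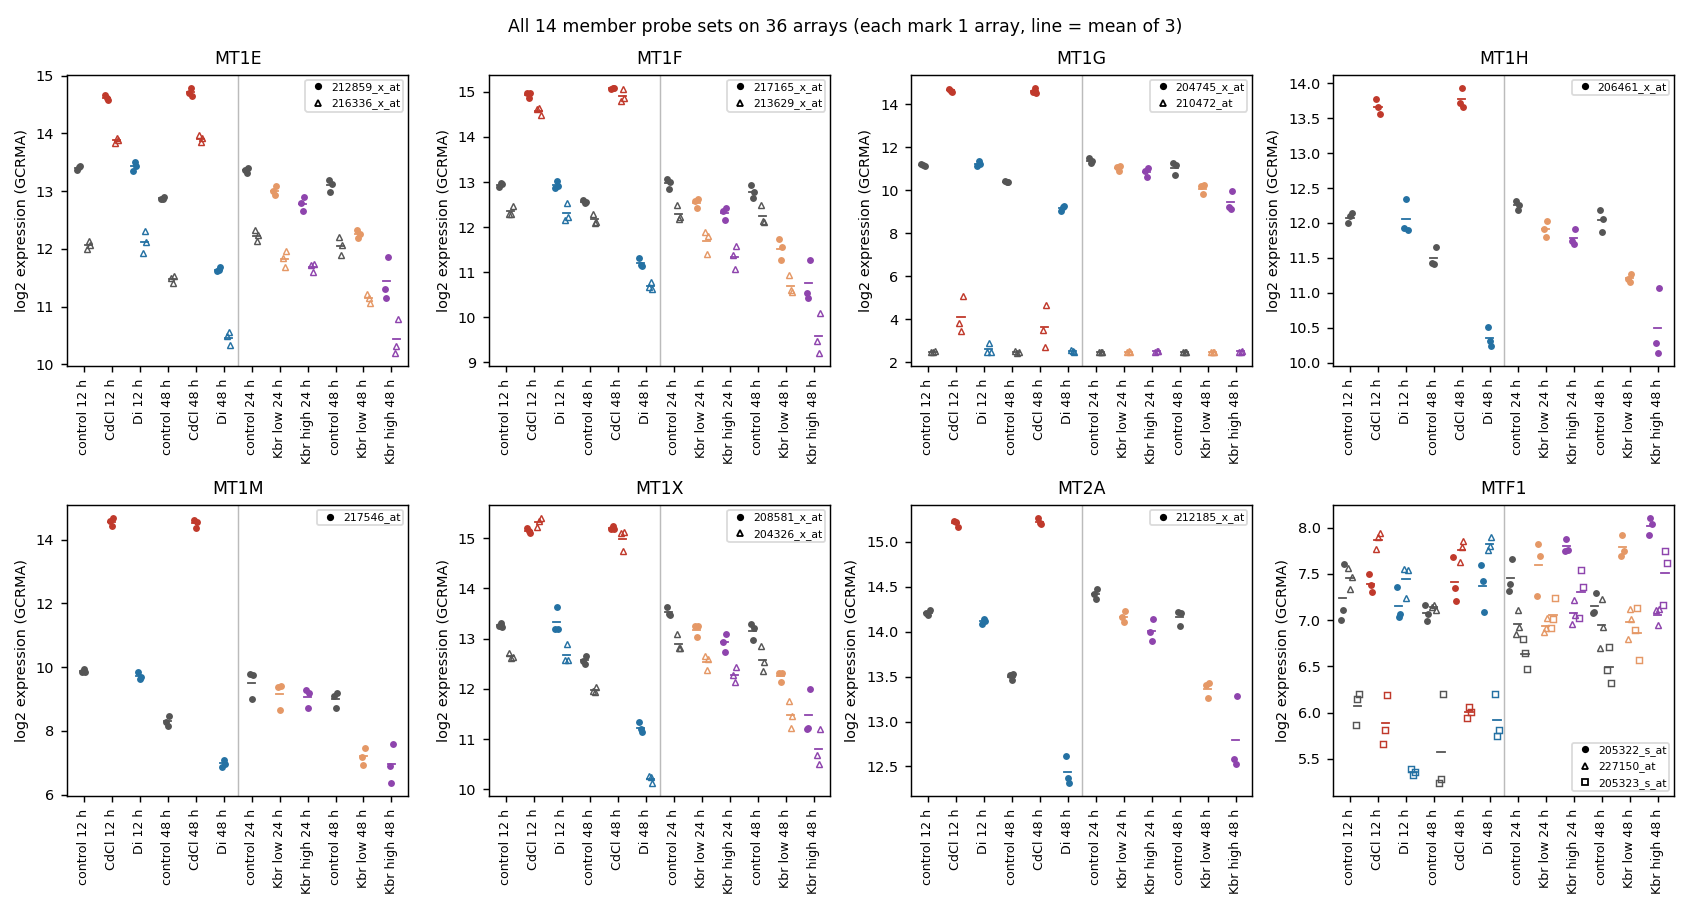
Log2 expression of the 14 member probe sets on each of the 36 arrays, 1 panel a gene; each mark is 1 array, each line the mean of 3 arrays, and the vertical line parts the 2 sets. For the 10 tested metallothionein probe sets the CdCl arrays stand above the others of their set and the Di arrays at 48 h below their controls; MT1G probe set 210472_at lies near 2.5 outside CdCl.

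With CdCl, all metallothioneins rose, at 12 h and at 48 h. MT1M, 1 of the MT1 isoforms, had read 8.29, 8.16 and 8.45 in the 48 h controls and read 14.61, 14.37 and 14.56 with CdCl. The 6 arrays lie in separate blocks with a wide gap. MT1M was thus higher by 6.21 ± 0.23, or 74.1-fold, with an adjusted p of 6.09e-18. MT1G, a neighbouring MT1 isoform, read 10.41, 10.37 and 10.38 without and 14.58, 14.76 and 14.54 with CdCl at 48 h, again with no overlap. That is a difference of 4.24 ± 0.16, or 18.9-fold. MT2A, the isoform most abundant in many human tissues, read 13.52, 13.46 and 13.53 in controls and 15.27, 15.21 and 15.20 with CdCl, 3.30-fold higher, the smallest difference of the 10 probe sets at 48 h.

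At 12 h MT1M again differed most and MT2A least. MT1M read 9.86, 9.93 and 9.86 in controls and 14.59, 14.43 and 14.68 with CdCl (25.7-fold, adjusted p = 4.46e-15). MT1G went from 11.21, 11.16 and 11.13 to 14.72, 14.61 and 14.58, a rise of 11.1-fold. The values of MT2A were 14.20, 14.18 and 14.24 without and 15.24, 15.22 and 15.17 with CdCl, a difference of 1.00 ± 0.12 with an adjusted p of 2.80e-07. No CdCl array overlapped a control array for any of the 10 probe sets at either time, where 21.3% of all probe sets lay wholly above control at 12 h and 24.5% at 48 h. At 12 h, 10 of 10 metallothionein probe sets were called higher, against 15.1% of all probe sets (22.9% were lower), with a median difference of 1.94 against -0.09 over all. At 48 h, 10 of 10 were called higher, against 17.3% of all (20.1% lower), with a median of 2.57 against -0.03. The CdCl means of the 10 probe sets lay between 13.7 and 15.3, while the highest value of an array was 15.8 to 16.1. The highest of these means are near the top of the scale, and those of MT1H, at 13.7 and 13.8, lie further below it. Whether the top of the scale limited the differences was not tested.

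The remaining genes lay between these. MT1H, next to MT1G in the cluster, read 11.43, 11.41 and 11.65 in the 48 h controls and 13.73, 13.94 and 13.66 with CdCl, 4.85-fold higher. MT1E (212859_x_at) read 12.86, 12.87 and 12.90 in controls and 14.70, 14.79 and 14.65 with CdCl, 3.57-fold higher. For MT1X, the last gene of the cluster, 208581_x_at read 12.54, 12.50 and 12.66 without and 15.18, 15.24 and 15.18 with CdCl, 6.19-fold higher. In each the CdCl arrays sit in a tight block above the controls. MT1F (213629_x_at) read 12.30, 12.10 and 12.12 in controls and 14.80, 15.06 and 14.86 with CdCl, 6.67-fold higher.

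The probe sets of 1 gene did not give 1 size. For MT1E, probe set 212859_x_at rose by 1.21 ± 0.11 and 216336_x_at by 1.81 ± 0.12 with CdCl at 12 h. MT1X behaved alike, with 1.89 ± 0.15 for 208581_x_at and 2.66 ± 0.16 for 204326_x_at. The gap for MT1F was smaller, at 1.99 ± 0.14 for 217165_x_at and 2.23 ± 0.17 for 213629_x_at. The direction was the same within each pair. The probe set of MT1G that was not kept, 210472_at, carries no cross-binding suffix. It stayed between 2.44 and 2.91 on every array outside CdCl. With CdCl it read 3.81, 3.47 and 5.06 at 12 h and 3.51, 2.71 and 4.64 at 48 h. Above background it was on 2 arrays, both CdCl. In a fit without the filter it was higher with CdCl, with an adjusted p of 0.000285 at 12 h and 0.00819 at 48 h, and no fold is given for values at background.

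With Di no metallothionein passed the test at 12 h, and all of them fell at 48 h. At 12 h MT1M read 9.83, 9.62 and 9.69 with Di, a difference of -0.17 from its control with a 95% interval of -0.65 to 0.31. For MT2A the Di arrays read 14.09, 14.14 and 14.11, a difference of -0.09 (95% interval -0.34 to 0.16). The Di arrays of both genes lie just under the control arrays, and neither difference passed the test. At 12 h 0 of 10 metallothionein probe sets were called in either direction, against 3.14% of all probe sets higher and 4.18% lower, and 8 of the 10 overlapped their controls. The 2 that did not, MT1M and MT2A, lay below, as did 18.8% of all probe sets. Over the 10 metallothionein probe sets the median difference was 0.007, against -0.04 over all probe sets.

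At 48 h MT1M read 6.87, 7.09 and 6.98 with Di against 8.29, 8.16 and 8.45 in controls, 2.50-fold lower (adjusted p = 4.06e-05). MT2A read 12.61, 12.38 and 12.31, 2.09-fold lower than its control, with an adjusted p of 5.00e-08. The MT1X probe set 204326_x_at fell the most, by 1.76 ± 0.16, from 11.95, 11.93 and 12.03 to 10.26, 10.24 and 10.12. MT1G fell from 10.41, 10.37 and 10.38 to 9.02, 9.24 and 9.24, or 2.33-fold. MT1H fell from 11.43, 11.41 and 11.65 to 10.51, 10.31 and 10.24, or 2.21-fold. Every Di array lay below every control array for all 10 probe sets, against 28.2% of all probe sets. MT1E (212859_x_at) read 11.61, 11.63 and 11.68 with Di, 2.36-fold below its control, and MT1F (213629_x_at) read 10.66, 10.78 and 10.63, 2.79-fold below. Thus 10 of 10 were called lower, against 21.5% of all probe sets (17.7% were higher), with a median of -1.28 against -0.01 over all. The fall spans 1.02 to 1.76, or 2.02-fold to 3.39-fold, a narrower range than the CdCl rise of 1.72 to 6.21 at the same time.

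CdCl and Di were also compared with each other at matched times, without the control they share. All 10 metallothionein probe sets were higher with CdCl at 12 h, by 1.09 to 4.86, in a comparison that called 28.9% of all probe sets in either direction. At 48 h all 10 were higher by 2.79 to 7.53, where 32.9% of all were called. MT1M had the widest gap at 48 h, 7.53 ± 0.23, and MT2A the narrowest, 2.79 ± 0.12.

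**Figure D2:**
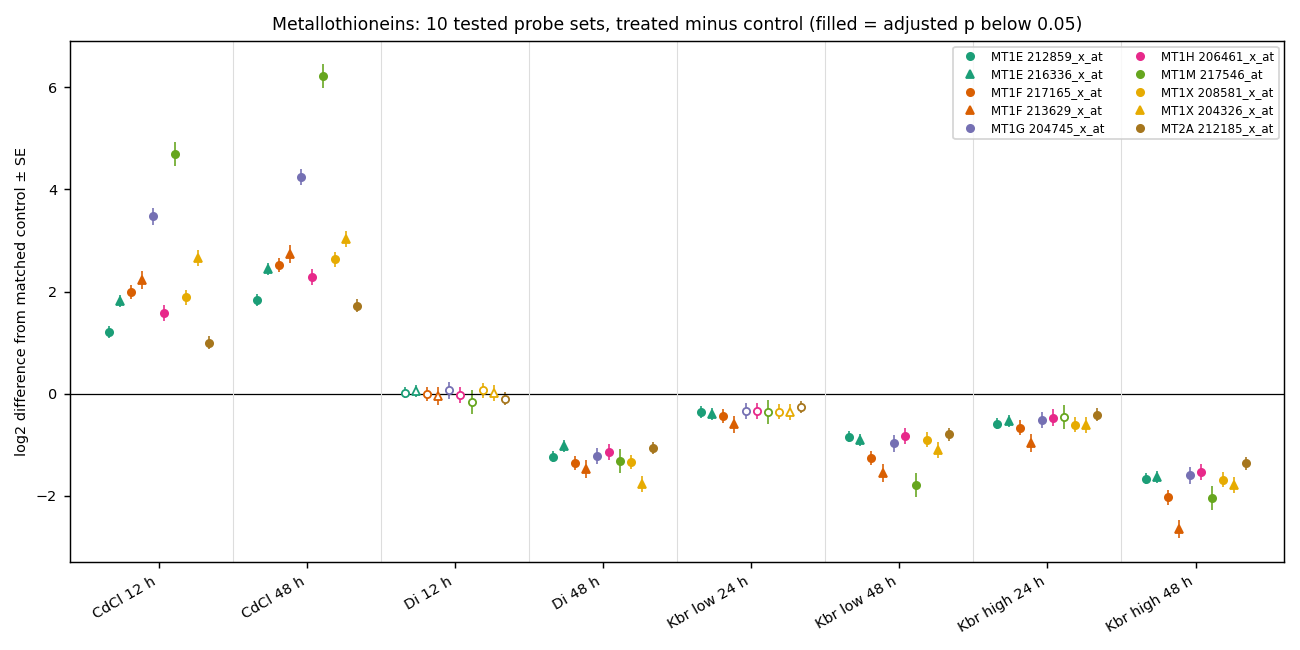
Log2 difference from the matched control for the 10 tested metallothionein probe sets in each of the 8 treated groups; each mark is 1 probe set and each bar the standard error. All lie above 0 with CdCl, around 0 with Di at 12 h and below 0 in the other groups, most of all with high Kbr at 48 h.

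Kbr lowered the metallothioneins at both doses, and more at 48 h than at 24 h with the high dose. MT1F had the largest fall: its probe set 213629_x_at read 12.49, 12.15 and 12.11 in the 48 h controls, 10.93, 10.60 and 10.57 at the low dose and 9.48, 9.22 and 10.10 at the high dose. The 3 groups do not overlap. The high dose was lower than control by 2.65 ± 0.17, or 6.29-fold, with an adjusted p of 6.82e-13. MT1M read 9.10, 8.71 and 9.18 in controls, 7.19, 6.94 and 7.47 at the low dose and 6.90, 6.36 and 7.59 at the high dose. Both doses lie below the control, by 3.46-fold and 4.11-fold, and overlap each other. MT2A read 14.22, 14.06 and 14.20 in controls, 13.41, 13.26 and 13.43 at the low dose and 12.59, 12.52 and 13.29 at the high dose, 1.74-fold and 2.57-fold below control.

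The other genes fell in a graded way at 48 h. MT1E (212859_x_at) read 13.19, 12.99 and 13.12 in controls, 12.32, 12.19 and 12.25 at the low dose and 11.31, 11.14 and 11.85 at the high dose. MT1G read 11.27, 10.70 and 11.15 in controls, 10.18, 9.81 and 10.23 at the low dose and 9.23, 9.13 and 9.98 at the high dose. For MT1E the 3 groups do not overlap, and for MT1G the third high-dose array reaches into the low-dose range. MT1H read 12.19, 11.87 and 12.05, then 11.20, 11.16 and 11.27, then 10.28, 10.14 and 11.07. MT1X (208581_x_at) read 13.28, 12.98 and 13.21, then 12.32, 12.13 and 12.31, then 11.20, 11.22 and 11.99. Both kept their dose groups apart. Against control the high dose was 3.17-fold lower for MT1E, 3.02-fold for MT1G, 2.91-fold for MT1H and 3.22-fold for MT1X.

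At 48 h the low dose had 10 of 10 metallothionein probe sets called lower, against 19.0% of all probe sets (22.2% were higher), with a median of -0.94 against 0.02 over all. The high dose had 10 of 10 called lower, against 29.1% of all (27.5% higher), with a median of -1.68 against -0.001. Treated and control arrays did not overlap for any of the 10 at either dose, where 20.8% of all probe sets lay wholly below control with the low dose and 29.5% with the high dose. The third replicate of the high dose read higher than the other two for all 10 probe sets. Without it the median difference was -1.91 and all 10 were still called.

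At 24 h the falls were smaller. With the high dose, MT1F (213629_x_at) read 11.38, 11.06 and 11.58 against 12.50, 12.18 and 12.22 in controls, lower by 0.96 ± 0.17. MT2A read 13.99, 13.89 and 14.14 against 14.42, 14.37 and 14.48, lower by 0.41 ± 0.12. Neither overlaps its control. In all, 9 of 10 metallothionein probe sets were called lower, against 18.9% of all probe sets (14.5% higher), and MT1M was not (-0.45, 95% interval -0.93 to 0.03; adjusted p = 0.0289 without the second 24 h control). The number of member probe sets called, MTF1 included, dropped from 10 to 6 without the second replicate of the high dose at 24 h. With the low dose at 24 h, 4 of 10 were called lower, both of MT1E and both of MT1F, against 5.47% of all (5.27% higher). Leaving out any 1 of the 6 arrays left 0 to 2 of these calls, and a fit of these arrays alone, or of the Kbr set alone, left 0. Arrays of the Kbr set with the same replicate number deviated together. With the replicate number as a block, MT1M was called at the high dose (adjusted p = 0.00592), and at the low dose the replicate block added MT1G (0.0499) and MT1M (0.0462), which made 6 calls.

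The doses were compared directly as well. At 24 h 0 of 13 member probe sets differed between high and low Kbr, in a comparison that called 2.36% of all probe sets. The difference of MT2A there was -0.16, with a 95% interval of -0.41 to 0.09, and the median over the metallothioneins was -0.20. Between arrays of the same replicate number, high minus low was negative in all 3 pairs for 9 of the 10 metallothionein probe sets. For MT2A it was -0.17, -0.21 and -0.09, and for MT1E (212859_x_at) -0.21, -0.27 and -0.20. With the replicate block 0 of 13 were called, at adjusted p-values of 0.431 for MT2A and 0.156 for MT1E (212859_x_at). The count of negative pairs was not made over all probe sets. Centring each array on its median moved the median difference of all probe sets at 24 h from -0.02 to 0.04. The pair values are not centred, and some are little larger than this shift. Since the metallothionein probe sets cross-bind, the 9 are not separate results. At 48 h centring each array on its median moved the median difference of all probe sets from -0.03 to 0.08, so differences are given relative to that median. MT1F (213629_x_at) was lower with the high dose by a further 1.07, MT1E (212859_x_at) by 0.79 and MT2A by 0.54, and 9 of 10 metallothionein probe sets were called lower where 18.2% of all were called in either direction. MT1M was not called: its relative difference was -0.22. The arrays of the doses did not overlap for 7 of the 10, all lower with the high dose, as were 16.7% of all probe sets. Without the third replicate of the high dose, 9 were called, with a median of -0.95 in place of -0.71 before centring. The call of MT1G was lost without the second high-dose array, and a fit of these 6 arrays alone gave 0 calls.

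Markers of other cell types were read on the same arrays. Leukocyte markers were above background on 0 arrays, and of the endothelial markers PECAM1 was, on 1 array. Of 3 fibroblast markers DCN, a matrix proteoglycan, was above background on all 36 arrays (9.73 to 12.4), and COL3A1 and PDGFRB on none. Group means of COL3A1 were 2.85 to 2.97 and of PDGFRB 2.37 to 2.52, so shifts of the mean over these 3 are mainly shifts of DCN. The mean over these 3 was 5.01 to 5.13 with high Kbr and 5.02 to 5.21 with low Kbr at 48 h, against 5.68 to 5.74 in their control, and 5.08 to 5.17 with Di at 48 h against 5.38 to 5.48. The mean of the 11 epithelial markers was 6.37 to 6.49 with high Kbr at 48 h against 6.73 to 6.90, and 6.21 to 6.24 with Di at 48 h against 6.56 to 6.59. With CdCl at 48 h the epithelial mean was 6.38 to 6.44 and the fibroblast mean 5.50 to 5.71. At 24 h the fibroblast mean was 5.39 to 5.51 with high and 5.48 to 5.57 with low Kbr against 5.69 to 5.97 in their control, and the epithelial mean 6.62 to 6.72 and 6.74 to 6.82 against 6.87 to 7.00. Shifts of the epithelial mean come mainly from the 5 of 11 markers above background, among which the group means of CDH6 spanned 7.86 to 12.8. The part of these markers in the metallothionein differences was not tested.

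At 48 h the 3 compounds can be set side by side through their own controls. The CdCl effect exceeded that of high Kbr for all 10 metallothionein probe sets, by 3.09 to 8.25, where 44.6% of all probe sets were called in either direction. The Di effect was less negative than that of high Kbr for both probe sets of MT1E and of MT1F, 4 of 10, where 38.8% of all were called in either direction. The count of 4 in 10 is near that share, but the share holds both directions and the 4 have 1. The count also moved with 1 array, as given below, so no reading is drawn from it. MT1F (213629_x_at) differed the most, by 1.17 ± 0.24 with an adjusted p of 0.000350. MT1X (204326_x_at) showed the least difference, 0.02, with a 95% interval of -0.43 to 0.47. The call of MT1E (212859_x_at), at 0.43, was lost on leaving out any 1 of 7 of the 12 arrays. Without the third high-dose array at 48 h, 9 of 10 metallothionein probe sets were called. With the replicate block, MT1M was called too (0.72, adjusted p = 0.00191). These comparisons cross the sets, whose controls differ: at 48 h the Kbr control was higher than that of the other set for 7 of 10 metallothionein probe sets, among them MT2A by 0.66 and MT1M by 0.69, where 47.1% of all probe sets were called. The call of MT1M there was lost without the second CdCl and Di control, the first Kbr control or the third. The actin 3′ minus 5′ difference given above also parts the sets, and its part was not tested. Set and culture cannot be told apart there.

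**Figure D3:**
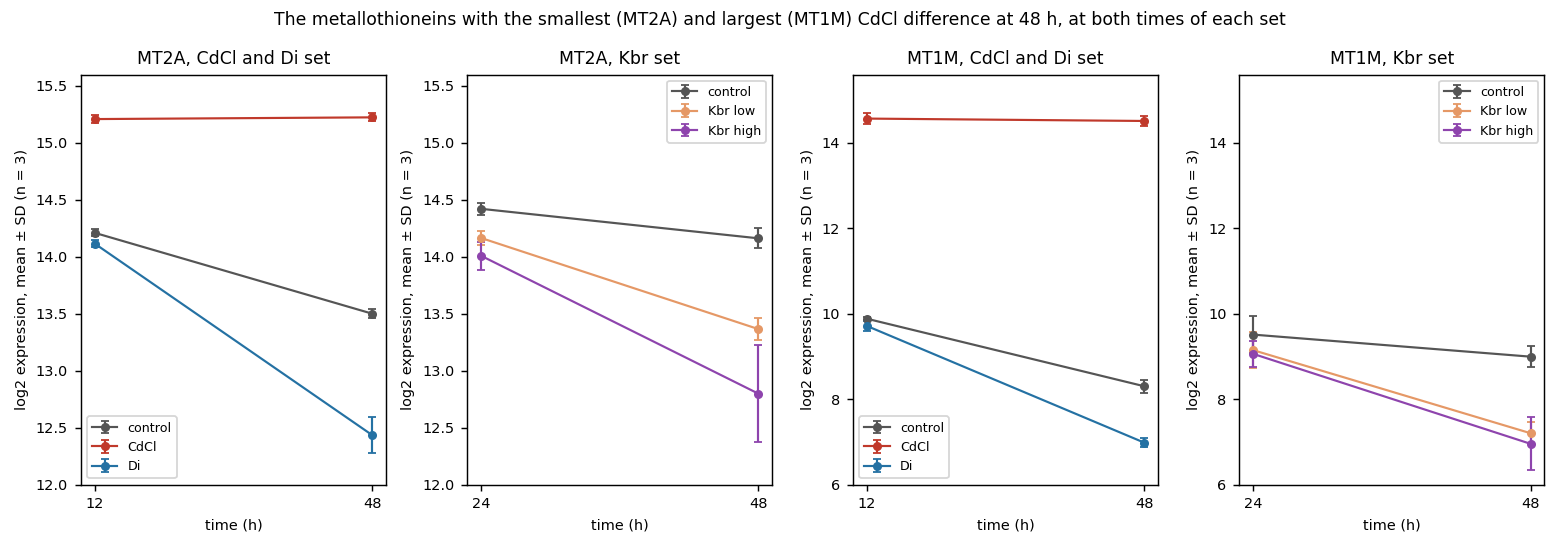
Log2 expression of MT2A and MT1M, which had the smallest and largest CdCl difference at 48 h, at both times of each set. Each mark is the mean of 3 arrays, each bar their standard deviation, and each line joins the means of a treatment. The CdCl lines change little while the control, Di and Kbr lines go down.

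Time moved the controls as well as the treated cells. In the CdCl and Di set, the control of MT1M fell from 9.86, 9.93 and 9.86 at 12 h to 8.29, 8.16 and 8.45 at 48 h, by 1.58 ± 0.23. MT2A fell from 14.20, 14.18 and 14.24 to 13.52, 13.46 and 13.53. Of the 10 metallothionein probe sets, 9 were called lower in the later control, in a comparison that called 41.6% of all probe sets. The exception was MT1F (213629_x_at), with -0.18 and a 95% interval of -0.53 to 0.17. MT1F (217165_x_at) was called at -0.38, and the call was lost on leaving out any 1 of 5 of the 6 arrays. Between these controls the actin 3′ minus 5′ value went from 1.84 to 1.5, and the fibroblast marker mean was 5.75 to 5.80 at 12 h and 5.38 to 5.48 at 48 h. The epithelial marker mean was 6.73 to 6.80 and 6.56 to 6.59, and the part of these values was not tested. For CdCl the 48 h minus 12 h means lay between -0.33 and 0.33 (median 0.04), with overlapping arrays for 7 of 10. The share of all probe sets that overlap between these groups was not counted, and the CdCl times were not tested against each other. Whether the top of the scale limited a further rise was not tested. Both probe sets of MT1F were higher at 48 h without overlap, 213629_x_at at 14.91 against 14.58 and 217165_x_at at 15.08 against 14.93, and MT1X (204326_x_at) was lower without overlap, at 14.99 against 15.32. The change of the CdCl difference was called for 7 of 10 probe sets, against 20.8% of all, and was largest for MT1M at 1.53 ± 0.33.

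Di, by comparison, went from no called difference to a fall. The change of its effect was called for all 10 metallothionein probe sets, between -1.78 and -0.97, against 25.7% of all. The Di level itself fell by 1.61 to 2.73 between the times. In the Kbr set the controls span 24 h to 48 h, a shorter interval than 12 h to 48 h, so the 2 control changes are not alike. Between the Kbr controls 0 of 10 were called, where 8.57% of all were. All 10 means were lower at 48 h, with differences of -0.52 to -0.05. With the replicate block 3 were called, MT1E, MT1M and MT1X, with adjusted p-values of 0.0479, 0.00579 and 0.0452. The change of the high Kbr effect was called for all 10, from -1.69 to -0.95, against 11.9% of all, and for 5 members in a fit of these arrays alone. The change of the low Kbr effect was called for 3 of 10, MT1M and both probe sets of MT1F, against 2.59% of all. This number fell to 0 in a fit of these arrays alone or of the Kbr set alone, to 0 without the first 48 h control, the first low-dose array at 24 h or the second low-dose array at 48 h, and to 1 without the third 24 h control. With the replicate block it was 8.

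For all 10 tested metallothionein probe sets the CdCl groups ranked highest in their set, with the 48 h control next to last and Di at 48 h last, and in the Kbr set low and then high Kbr at 48 h came last. In the CdCl and Di set MT2A was highest with CdCl at 48 h (mean 15.22) and at 12 h (15.21), whose arrays overlap. The 12 h control (14.21) and Di at 12 h (14.12) followed, a pair that did not pass the test, then came the 48 h control (13.50) and Di at 48 h (12.43). MT1M had the same sequence with the CdCl times exchanged, from 14.57 to 6.98. In the Kbr set MT2A went from the 24 h control (14.42) through low Kbr at 24 h (14.17), the 48 h control (14.16) and high Kbr at 24 h (14.01), whose neighbours overlap, to low Kbr at 48 h (13.37) and high Kbr at 48 h (12.80). The arrays of the last pair overlap only through the third high-dose array. In the Kbr set MT1M went from 9.51 in the 24 h control through 9.15, 9.06 and 8.99 in low Kbr at 24 h, high Kbr at 24 h and the 48 h control, whose neighbours overlap, to 7.20 and 6.95 in low and high Kbr at 48 h, which overlap.

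MTF1, the factor itself, differed from control by at most 1.01, and its 3 probe sets were not called in the same comparisons. Probe set 227150_at rose with CdCl and with Di at 48 h. It read 7.14, 7.17 and 7.11 in the 48 h controls, 7.63, 7.79 and 7.86 with CdCl and 7.76, 7.80 and 7.90 with Di, with both treatments above every control. The differences were 0.62 ± 0.12 (adjusted p = 0.000101) and 0.68 ± 0.12 (2.54e-05), or 1.54-fold and 1.60-fold. At 12 h it read 7.57, 7.34 and 7.47 in controls and 7.77, 7.90 and 7.94 with CdCl, a rise of 0.41 ± 0.12. With Kbr it showed 0.11 at most in either direction, with a 95% interval of -0.13 to 0.35 for high Kbr at 48 h.

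The other MTF1 probe sets rose with Kbr. At 48 h 205322_s_at read 7.08, 7.09 and 7.29 in controls, 7.70, 7.92 and 7.75 at the low dose and 7.92, 8.10 and 8.04 at the high dose. Each dose lay above every control array. It rose by 0.63 ± 0.16 with the low dose and 0.87 ± 0.16 with the high dose. Probe set 205323_s_at read 6.46, 6.71 and 6.32 in controls and 7.16, 7.74 and 7.62 with high Kbr, 2.01-fold higher (adjusted p = 0.000120). At 24 h it was higher by 0.67 ± 0.20 with the high dose, a call lost without the third 24 h control or the second high-dose array. High Kbr exceeded low Kbr for it at 48 h, by 0.68 relative to all probe sets. That call was lost on leaving out any 1 of 4 arrays.

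With CdCl at 48 h the differences of these probe sets were 0.34 and 0.43, neither called. The control arrays of 205323_s_at were 5.24, 5.28 and 6.20, and without the third of them the CdCl difference had an adjusted p of 0.00296. For 205322_s_at the adjusted p became 0.0494 without the third CdCl array. With Di at 48 h they were 0.30 and 0.35, neither called, with adjusted p-values of 0.0432 for 205322_s_at without the third Di array and 0.00697 for 205323_s_at without the third control. Di at 12 h lowered 205323_s_at, from 5.87, 6.14 and 6.20 to 5.40, 5.33 and 5.36, by 0.71 ± 0.20 with an adjusted p of 0.0313, and the call was lost without any 1 of 5 of the 6 arrays. The actin 3′ minus 5′ value was 1.40 in these Di arrays and 1.84 in their control, the ends of the range in that set, and its part was not tested. By count, 1 of 3 MTF1 probe sets was called higher with CdCl at each time, with Di at 48 h, with low Kbr at 48 h and with high Kbr at 24 h, and 2 of 3 with high Kbr at 48 h. With Di at 12 h 1 was lower, and with low Kbr at 24 h 0 were called. Of all probe sets, 15.1% and 17.3% were higher with CdCl at 12 h and 48 h, and 17.7% with Di at 48 h. With low Kbr at 48 h 22.2% were higher, and with high Kbr 14.5% at 24 h and 27.5% at 48 h. With Di at 12 h 4.18% were lower, and with low Kbr at 24 h 5.27% were higher and 5.47% lower. A count of 1 in 3 probe sets cannot be told apart from such shares.

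The difference between compounds was tested for MTF1 too. The CdCl effect on 227150_at at 48 h exceeded that of high Kbr by 0.51 ± 0.16 (adjusted p = 0.0128), a call lost without the second 48 h Kbr control. The Di effect exceeded it by 0.57 ± 0.16. For 205322_s_at the Di effect was lower than that of high Kbr by 0.57 ± 0.22 (adjusted p = 0.0413), a call lost on leaving out any 1 of 8 of the 12 arrays. CdCl exceeded Di for 227150_at at 12 h by 0.42 ± 0.12, a call lost without the second Di array. At 48 h their difference on 227150_at was -0.06, with a 95% interval of -0.30 to 0.18. The controls moved too: 227150_at was lower by 0.32 ± 0.12 in the 48 h than in the 12 h control of its set, a call lost on leaving out any 1 of 4 of the 6 arrays, and 205323_s_at was higher by 0.93 ± 0.20 in the Kbr control than in the other at 48 h.

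**Figure D4:**
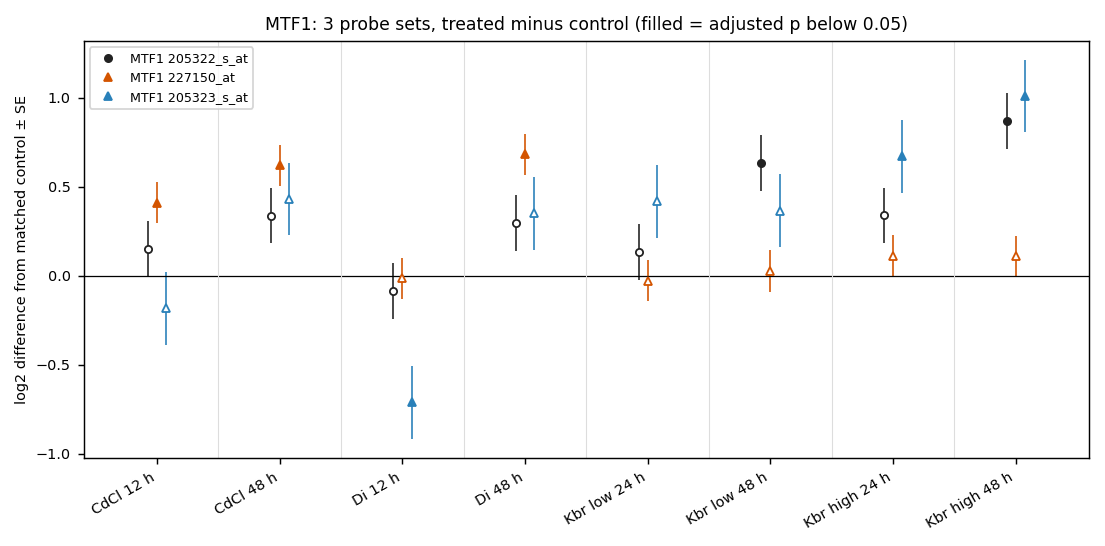
Log2 difference from the matched control for the 3 MTF1 probe sets in the 8 treated groups; bars are standard errors and filled marks passed the test. Probe set 227150_at is raised with CdCl and with Di at 48 h, and the other two with high Kbr at 48 h.

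Other genes of zinc handling came from a list of 10: the exporters SLC30A1, SLC30A2 and SLC30A10, the importers SLC39A8, SLC39A10 and SLC39A14, the metal ion transporter SLC11A2, and the reported MTF1 targets GCLC, SELENOW and PGF. Of these, 9 were tested, each by its highest probe set. With CdCl at 12 h 4 of 9 rose and 0 fell, where 15.1% of all probe sets rose and 22.9% fell, and at 48 h 5 rose and 2 fell (17.3% and 20.1%). With Di 0 were called at 12 h (3.14% and 4.18%), and 3 rose and 4 fell at 48 h (17.7% and 21.5%). With low Kbr 1 rose and 2 fell at 24 h (5.27% and 5.47%), and 2 rose and 4 fell at 48 h (22.2% and 19.0%). With high Kbr 1 rose and 2 fell at 24 h (14.5% and 18.9%), and 2 rose and 5 fell at 48 h (27.5% and 29.1%). With 9 genes several of these counts lie near the shares of all probe sets. The list medians were 0.11 and 0.43 with CdCl at 12 h and 48 h, 0.09 with Di at 48 h and -0.29 with high Kbr at 48 h. With Di at 12 h, low Kbr at 24 h and 48 h and high Kbr at 24 h they were -0.06, -0.04, -0.13 and 0.01.

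SLC30A1, which moves zinc out of the cell, read 12.55, 12.69 and 12.51 in the 48 h controls, 14.43, 14.38 and 14.54 with CdCl and 12.88, 12.84 and 12.90 with Di. CdCl arrays stand far above both other groups, by 1.87 ± 0.08 over control (adjusted p = 5.68e-16), and Di only slightly, by 0.29 ± 0.08. With high Kbr at 48 h its difference was 0.07. Its second probe set, 228181_at, disagreed there with a rise of 1.15 ± 0.18, and it also rose by 1.08 with low Kbr at 48 h, while with CdCl at 48 h both rose (2.56 for the second). SLC30A2, an exporter that loads zinc into vesicles, read 9.07, 9.11 and 9.32 in controls, 11.69, 11.67 and 11.48 with CdCl and 7.27, 7.04 and 6.96 with Di. It lay above control in the first and below it in the second, by 2.44 ± 0.24 and -2.08 ± 0.24. With high Kbr at 48 h it read 6.51, 6.29 and 5.67 against 8.95, 9.25 and 8.76, a fall of 2.83 ± 0.24. SLC30A2 thus had the direction of the metallothioneins in all of these groups. In the RefSeq promoter windows SLC30A2 held 3 core matches, SLC30A1 1 and GCLC 2, where 24.8% of all windows held at least 1. The other genes of this list in the promoter table held 0. Whether the matches bear on the differences was not tested.

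GCLC, the catalytic subunit of glutathione synthesis, went another way. It read 9.08, 9.12 and 9.08 in the 48 h controls, 10.86, 10.75 and 10.80 with CdCl and 12.60, 12.60 and 12.67 with Di. It rose with both, by 1.71 ± 0.24 and 3.53 ± 0.24 (adjusted p = 2.18e-12). High Kbr at 48 h gave 11.49, 11.04 and 10.15 against 8.58, 8.65 and 8.64, a rise of 2.27 ± 0.24. So where the metallothioneins fell with Di and Kbr at 48 h, GCLC rose. Among the importers, SLC39A14 rose with CdCl at 12 h (1.26 ± 0.22) and at 48 h (0.72 ± 0.22), and with Di at 48 h (0.75 ± 0.22). It rose with low Kbr at 48 h as well (1.23 ± 0.22). Its second probe set, 1555434_a_at, rose by 3.35 ± 0.32 with CdCl at 12 h and also by 1.16 with Di at 12 h, a call lost in 6 alternatives, where the first showed -0.06. SLC39A8, a carrier of zinc and cadmium into cells, showed -0.01 with CdCl at 48 h and fell with Di by 1.02 ± 0.12 and with high Kbr by 1.93 ± 0.12. SELENOW, a selenoprotein, fell by 0.79 ± 0.12 with CdCl at 48 h.

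**Figure D5:**
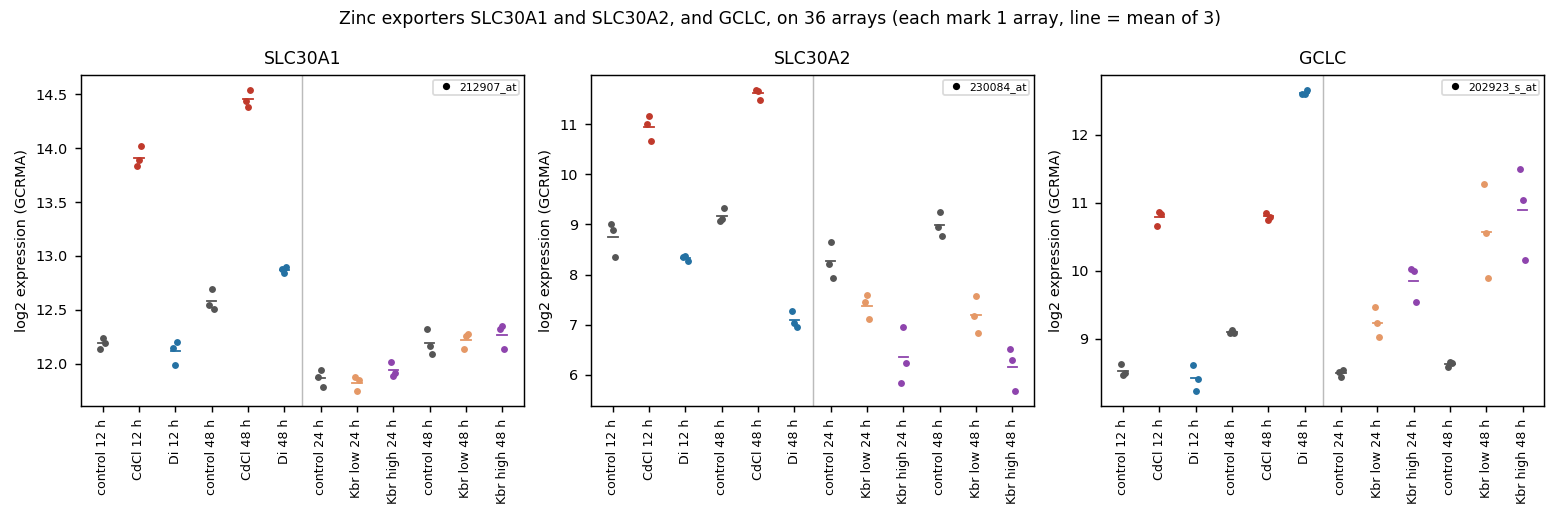
Log2 expression of SLC30A1, SLC30A2 and GCLC on the 36 arrays; each mark is 1 array and each line the mean of 3. SLC30A1 stands apart with CdCl, SLC30A2 is above control with CdCl and below it with Di at 48 h and Kbr, and GCLC is highest with Di at 48 h.

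Of 11 other metallothionein genes and pseudogenes, 3 had a probe set on the array and 2 were tested. MT1HL1, a copy outside the cluster, has a cross-binding probe set (211456_x_at) and moved with the members. It read 12.72, 12.58 and 12.89 in the 48 h controls, 14.68, 14.93 and 14.70 with CdCl and 11.81, 11.41 and 11.36 with Di, and the 3 groups do not overlap. It rose by 2.04 ± 0.16 with CdCl and fell by 1.21 ± 0.16 with Di and by 1.49 ± 0.16 with high Kbr at 48 h. MT3, the brain isoform, stayed between 3.79 and 4.26 on all arrays and was called in 0 of the 8 comparisons with control. MT4 was below background.

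Over the 12 group means, each set centred on its own mean, the gene whose pattern was most like the mean of the metallothioneins was COL12A1, a fibril-associated collagen (Pearson r = 0.98), among 6265 genes whose means spanned at least 1. ZNF556 (0.95), MID1 (0.95), RTN2 (0.93) and ELMOD1 (0.92) followed. COL12A1 rose by 4.46 ± 0.39 with CdCl and fell by 1.62 ± 0.39 with high Kbr at 48 h, while with Di at 48 h it showed -0.94 ± 0.39 (adjusted p = 0.0568). For MTF1 the pattern is the mean of its 3 probe sets, which were not called in the same comparisons, so it need not be that of any single one. The genes nearest to this mean were OTUD3, a deubiquitinase (0.95), ZNF670 (0.95), LOC646214 (0.94), SRD5A1 (0.92) and GPATCH3 (0.92), among 10081 genes. These are descriptions over the same arrays that gave the patterns.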

How the data were processed

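Near-confluent HK-2 cells received compound or vehicle, and labelled cRNA from their total RNA was hybridised, per the labels' protocols. The values are those the authors deposited, log2 per probe set. GCRMA made them, per the submitters' processing notes: it models background from the bases of each probe and equalizes the arrays. Its version is not given in the sources used here. Such values compress differences of dim probe sets and remove part of a change shared by most genes.

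All 36 arrays entered 1 model with 12 group means in limma 3.58.1 (R 4.3.3; lmFit and eBayes), with Benjamini-Hochberg adjustment over 23599 probe sets and a threshold of 0.05, in 21 comparisons. Of 54675 probe sets, 62 controls and those not above 4 on at least 3 arrays were left out. By the platform annotation, 41097 probe sets had 1 symbol, 1801 had more and 11777 had no symbol. The fits were tested on simulated data. CdCl and Di share controls, as do the doses of Kbr.

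Every member probe set is reported. Of the other metallothioneins and the zinc list, genes past the test with CdCl or with Di at 48 h are named, at most 6 a list and largest first, and for each pattern the 5 most similar genes. MT3 and MT4 and the second probe sets of listed genes were added after their values were seen. Members and lists were chosen with earlier results of these data known.

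Replicate numbers 1 to 3 recur in every group. Residuals of Kbr arrays with equal numbers correlated at 0.229 to 0.675 in 45 of 45 pairs, and 18 of 18 arrays lay closest to their own number, so the data alone pair them. In the other set 7 of 45 pairs exceeded 0.1. The alternatives changed the filter (none, or above 6), the scaling (quantile, median), the variance prior, the features (1 probe set, or the mean, of each gene), array weights, the replicate block and the arrays in the fit, leaving out each in turn.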

Additional observations from a re-analysis of the deposited data

Results flagged for a closer look

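Effects that differed between the times of a set, by a test of the change itself, are listed here as log2 changes of the difference from control, later minus earlier. For CdCl, from 12 h to 48 h, 7 member probe sets changed: MT1E by 0.63 (212859_x_at) and 0.62 (216336_x_at), MT1G by 0.77, MT1H by 0.69, MT1M by 1.53, MT1X by 0.75 (208581_x_at) and MT2A by 0.73. The call for MT1H was lost without any 1 of 5 of the 12 arrays and that for MT1G without the second CdCl array at 48 h.

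For Di, from 12 h to 48 h, 12 member probe sets changed. MT1E changed by -1.26 and -1.07, MT1F by -1.35 and -1.43, MT1G by -1.28, MT1H by -1.12, MT1M by -1.15, MT1X by -1.41 and -1.78 and MT2A by -0.97. MTF1 changed in the other direction, by 0.70 on probe set 227150_at and 1.06 on 205323_s_at.

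For low Kbr, from 24 h to 48 h, 3 changed: MT1F by -0.83 and -0.95 and MT1M by -1.43. For high Kbr 10 changed: MT1E by -1.08 on both probe sets, MT1F by -1.37 and -1.69, MT1G by -1.08, MT1H by -1.08, MT1M by -1.59, MT1X by -1.08 and -1.16 and MT2A by -0.95.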

How the results depend on the processing

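Of 273 differences of member probe sets, 169 were called. Over 4692 alternative values 0 turned their direction, 144 called ones lost the call and 80 gained one, and 132 of the 169 kept it in every alternative. Of the 169, 23 were lost without at least 1 array, 7 of them among the 17 calls of MTF1. For the other genes described, 120 differences had 1872 alternative values, of which 0 turned, 83 lost and 12 gained a call. Those of GCLC, SLC39A8 and SLC30A2 with low Kbr at 24 h and of SELENOW with Di or Kbr were among the lost.

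Counts of called members moved as follows. With 1 probe set a gene, 8 genes are tested in place of 13 probe sets, and counts fell to 7 with CdCl at 12 h and at 48 h, with Di at 48 h, for CdCl against Di at 12 h and for the change of the Di effect, to 6 for high Kbr at 24 h and high against low at 48 h, to 5 between the 48 h controls, to 3 for Di against high Kbr, to 2 for low Kbr at 24 h and to 0 for Di at 12 h. With probe sets averaged by gene they were 7 for CdCl at 12 h and CdCl against high Kbr, 2 for low Kbr at 24 h and Di against high Kbr, and 0 for Di at 12 h. The single Di call at 12 h also went to 0 with no filter, quantile normalization or median centring. Low Kbr at 24 h gave 1 call with median centring and 0 with only the groups or only the set compared. With only the groups compared, fewer arrays estimate the spread, and high against low Kbr at 48 h gave 0 and the change of the high Kbr effect 5. The change of the low Kbr effect gave 0 with only the groups or the set compared, 5 with a variance trend, 8 with array weights and 8 with the replicate block. The replicate block gave 3 for the Kbr controls over time. Array weights gave 11 for Di against high Kbr. The causes of these moves were not tested where none is named.

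Leaving out 1 array gave 0 to 1 calls for Di at 12 h, 0 to 2 for low Kbr at 24 h, 6 to 11 for high Kbr at 24 h, 0 to 4 for the change of the low Kbr effect, 0 to 1 for the Kbr controls over time and 4 to 10 for Di against high Kbr, the last at 10 without the third high-dose array at 48 h. The replicate block added 18 calls of single probe sets and removed 0. Beside those in the report, they were MTF1 205323_s_at for CdCl against Di at 12 h (0.0305), the 12 h and 48 h controls (0.0320) and Di against high Kbr (0.0463), MTF1 205322_s_at for CdCl against high Kbr (0.0307), MT1F 217165_x_at for the change of the CdCl effect (0.0152) and MT1E 212859_x_at between the 48 h controls (0.0444), all as adjusted p-values.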
